A study of Mus musculus with 16 samples.

Results

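The cytosolic ribosomal protein genes were examined in adrenal glands of 4-week-old mice. Members were protein-coding genes whose symbol follows the Rpl or Rps naming of ribosomal proteins, together with Rplp0, Rplp1, Rplp2 and Rpsa, and they were chosen by a mean of at least 10 CPM (counts per 1000000 counts) over all libraries. Of 76 genes with such a symbol, 74 were members, out of 54838 genes in the count table. The mean level was the measured value used, so it is given as a description and was not tested. The 3 members just inside the floor were Rpl13a at 12.8 CPM, Rpl23a at 19.1 CPM and Rpl35 at 37.7 CPM, and the genes outside it were Rps10 at 4.33 CPM and Rpl24 at 0.451 CPM. All 74 members passed the filter on low counts, which kept 18214 genes.

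The 16 libraries of total RNA came from individual mice on a mixed genetic background. There were 4 mice of each sex with an Rspo1 gain of function (GOF) and 4 of each sex as controls. Rspo1 encodes a secreted protein that amplifies WNT signalling. The allele, promoter or Cre line behind the gain of function, and what the control mice carry, are not given in the sources used here. Spread between libraries is spread between mice.

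The cytosolic ribosome is built from a small (40S) and a large (60S) subunit, and each protein described here is present in most ribosomes in a single copy, apart from the paired acidic stalk proteins. The subunits must be made in matching amounts. Many ribosomal protein messages start with a C followed by a run of pyrimidines, the 5′ terminal oligopyrimidine tract, through which the growth regulator mTORC1 controls their translation. Their introns often hold small nucleolar RNA (snoRNA) genes, and their messages have left many processed pseudogenes in the genome, some almost identical to the parent. The adrenal cortex makes steroid hormones, and the medulla makes catecholamines.

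Pairs of coding sequences are shown first because they bear on every count below. Each line holds 60 coding bases of a member or of a copy elsewhere in the genome (GRCm38), with the bases that differ in capitals. Rps2 (chromosome 17, 24718116 to 24721929) and the processed pseudogene Rps2-ps13 (chromosome X, 52898588 to 52899469) differed at 7 of 879 coding bases, and coding bases 25 to 84 hold 2 of them.
Rps2: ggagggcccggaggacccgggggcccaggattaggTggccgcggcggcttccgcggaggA
Rps2-ps13: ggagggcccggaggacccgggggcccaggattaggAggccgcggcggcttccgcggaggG
Rpsa (chromosome 9, 120127689 to 120132369) and Rpsa-ps10 (chromosome 3, 150072658 to 150073542) differed at 6 of 885 coding bases, 2 of them in bases 160 to 219.
Rpsa: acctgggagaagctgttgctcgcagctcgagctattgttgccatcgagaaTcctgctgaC
Rpsa-ps10: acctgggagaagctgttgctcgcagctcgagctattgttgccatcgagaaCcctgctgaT
Rpl26 (chromosome 11, 68901583 to 68906989) and the processed pseudogene Gm15772 (chromosome 5, 3236431 to 3236868) differed at 2 of 435 coding bases, 1 of them in bases 118 to 177.
Rpl26: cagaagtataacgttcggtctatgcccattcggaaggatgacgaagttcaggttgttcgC
Gm15772: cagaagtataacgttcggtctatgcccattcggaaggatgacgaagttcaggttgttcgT
Rps18 (chromosome 17, 33951999 to 33956001) and Gm11361 (chromosome 13, 28257528 to 28258134), annotated as protein-coding, differed at 3 of 456 coding bases, 1 of them in bases 1 to 60.
Rps18: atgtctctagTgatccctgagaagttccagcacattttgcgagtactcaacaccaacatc
Gm11361: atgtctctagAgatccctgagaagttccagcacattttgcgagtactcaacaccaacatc

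Such copies were the rule among members. A median of 55.0% of the 50-base words of a member's transcript also occurred in other genes. With a copy defined as a gene that has at least 50% of its own words in a member, 190 genes were copies of 61 members, and 32 of them had a mean of at least 1 CPM.

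The start regions of the members that changed are shown next, because the members are known for pyrimidine tracts at this place. Each line is a RefSeq window (GRCm38.p6) of 30 bases, sense strand, from 15 bases before the annotated start, with the longest run of C and T in capitals. Where RefSeq gives several starts, the window with the longest run is printed. Of the members, 54 had a RefSeq entry.
Rpl10a, chr17:28328456-28328485, plus strand: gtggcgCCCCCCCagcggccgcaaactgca
Rpl12, chr2:32961697-32961726, plus strand: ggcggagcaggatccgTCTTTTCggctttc
Rpl13a, chr7:45128731-45128760, minus strand: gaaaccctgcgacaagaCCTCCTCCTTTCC
Rpl22, chr4:152324421-152324450, plus strand: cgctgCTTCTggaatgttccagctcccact
Rpl23, chr11:97782425-97782454, minus strand: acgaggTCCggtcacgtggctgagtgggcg
Rpl31, chr1:39367836-39367865, plus strand: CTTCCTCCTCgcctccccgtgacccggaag
Rpl35a, chr16:33056467-33056496, plus strand: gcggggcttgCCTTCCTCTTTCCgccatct
Rps12, chr10:23787195-23787224, minus strand: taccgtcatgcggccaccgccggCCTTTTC
Rps24, chr14:24490663-24490692, plus strand: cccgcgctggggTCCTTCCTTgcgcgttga
Of these 9 genes, Rpl35a had a C exactly at an annotated start followed by at least 4 pyrimidines. Over the 54 matched members that feature was present in 12, or 22.2%, against 3.01% of all 27025 genes in the RefSeq table and 2.90% of the 8104 other genes with a mean of at least 10 CPM. CTTTCC on the sense strand within 50 bases of a start was found in 31.5% of members and in 4.97% of those other expressed genes. In the 300-base window, either strand, CCGGAAG was found in 40.7% of members and 21.2% of the other expressed genes, TATAAA in 11.1% and 8.30%, and AAGATGG in 16.7% and 8.90%. CTTTCC on either strand in the same window was found in 27 of 54 members and in 30.2% of the other expressed genes. These are letter matches and not sites.

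Rpl3, Rpl7 and Rps14 also changed in at least 1 comparison and are named without a sequence.

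The libraries held 31275146 to 43003968 counts. Rspo1 ranged from 3.20 to 40.6 CPM in control females against 354 to 532 CPM with GOF, and from 19.4 to 48.2 CPM in control males against 535 to 972 CPM with GOF, and the genotypes did not overlap in either sex. The 13 steroidogenic cortex markers summed to 37240 to 62141 CPM in all libraries. The 10 medulla markers summed to 4824 to 11712 CPM in controls and 203 to 896 CPM in GOF libraries, and all 10 fell in both sexes. Of the 8 capsule and fibroblast markers, 7 fell in females and 8 in males. Kidney tubule transcripts, 12 markers, added up to 1335 CPM in the first female control and 222 CPM in the third, and to at most 5.79 CPM elsewhere. The 15 liver markers summed to 10177 CPM in male control 2, and in each sex the controls, at 120 CPM or more in females and 185 CPM or more in males, were above GOF libraries, at no more than 44.1 and 92.5 CPM. The 7 adipocyte markers separated the genotypes as well, at 849 to 1406 CPM in controls against 329 to 553.9 CPM with GOF in females, and at 1109 to 2857 CPM against 287 to 384 CPM in males. In males 3 further sums of such lists were higher with GOF and did not overlap, and in females they overlapped. The 10 macrophage markers were at 404 to 555.9 CPM in controls and 598 to 1755 CPM with GOF. The 8 B and T cell markers were at 12.4 to 81.3 CPM in controls and 85.8 to 182 CPM with GOF. The 9 stress and RNA quality symbols, which matched 10 Ensembl genes, were at 860 to 1986 CPM in controls and 2156 to 4089 CPM with GOF. The 8 erythroid markers also overlapped in females, and in males were at 1093 to 2131 CPM in controls and 389 to 758 CPM with GOF. The 6 skeletal muscle markers were at 2.56 to 5.07 against 1.87 to 2.42 CPM in females and at 2.95 to 71.7 against 1.99 to 2.29 CPM in males, controls first. In bulk tissue, fewer cells of a type and less RNA per cell cannot be told apart. The part of these shifts in the results below was not tested.

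Per gene length, the members were among the highest transcripts of the gland and close to each other. The mean FPKM (fragments per kilobase of length and 1000000 fragments) ran from 22.9 to 1876 with a median of 529.6, and 59 of 74 members lay within 2-fold of the median. The median member stood at the 99.2 percentile of all tested genes. The 5 highest were Rplp1 at 1876 FPKM, Rps14 at 1455, Rplp0 at 1207, Rpl10 at 1117 and Rpl6 at 983. Rplp1 and Rplp0 form the P stalk that recruits translation factors, Rps14 belongs to the 40S platform, and Rpl10 completes the 60S subunit near the peptidyl transferase centre.

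The low end of that range held genes whose exons overlap other annotated genes. The 5 lowest members were Rpl13a at 22.9 FPKM, Rpl23a at 34.6, Rpl35 at 63.4, Rpl30 at 77.6 and Rps15a at 146 FPKM. Rpl13a shared 35.4% of its exon bases with other annotated genes, Rpl23a 62.3%, Rpl35 66.2% and Rpl30 24.8%. The genes sharing these bases included Gm45713 for Rpl13a, Tlcd1 for Rpl23a, Wdr38 for Rpl35 and D730044K07Rik for Rpl30. Below the floor, Rps10 shared 28.7% and Rpl24 shared 47.0%. The sharing genes included the readthrough gene RPS10-NUDT3 for Rps10 and Gm28037 for Rpl24. Over the 7 lowest of the 76 genes the median shared part was 35.4%, with a range of 0 to 66.2% in which Rps15a was the gene at 0. Over the other 69 genes the median was 0, the highest value was 26.7%, and 38 shared no exon base. The size of this lowest group was chosen after the values were seen, and whether overlap lowered the counts was not tested. The strand setting of the counting is not given in the sources used here, so reads of a member and of an antisense partner cannot be told apart.

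**Figure D1:**
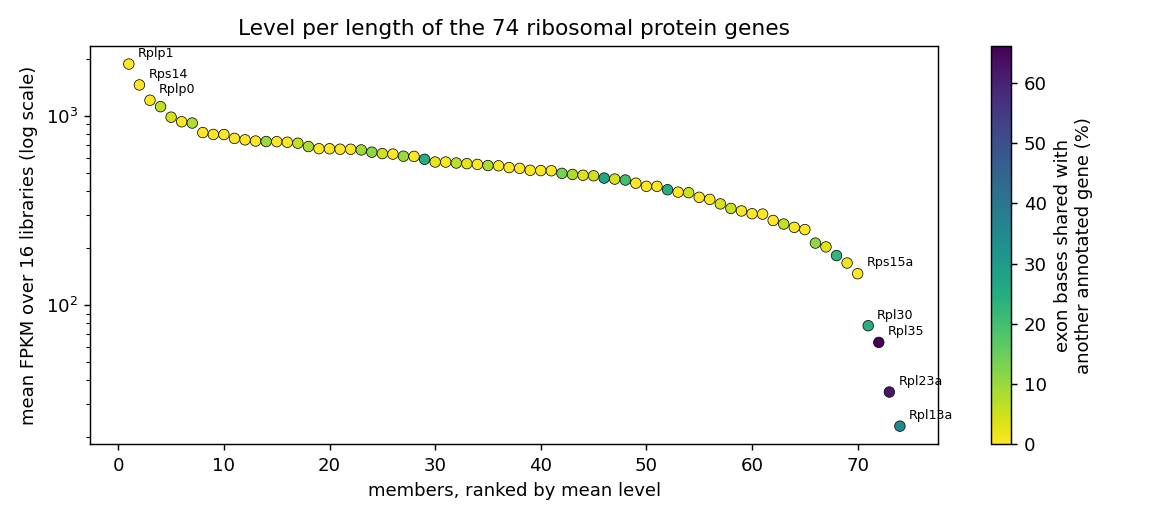
Mean FPKM over 16 libraries (log scale) of the 74 members in rank order, coloured by the percent of exon bases shared with another annotated gene. Most members lie in a narrow band around 529.6 FPKM. Rpl13a, Rpl23a, Rpl35 and Rpl30, each with at least 24.8% of exon bases shared, lie below it. Rpl5, Rpl31 and Rps25 share 26.7%, 25.3% and 24.8% and are not among the 5 lowest members.

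Together the members took a larger share of all counts in GOF libraries than in controls of the same sex. In females the share was 2.77, 2.55, 2.67 and 2.42% in the 4 controls and 3.20, 2.87, 3.13 and 2.92% in the 4 GOF libraries. The female groups did not overlap, with means of 2.60% ± 0.153 (SD, n = 4) and 3.03% ± 0.159 (SD, n = 4). In males the share was 3.36, 2.75, 2.80 and 2.44% in controls and 3.17, 3.65, 3.33 and 3.37% in GOF libraries. Male control 1 lay within the range of the male GOF libraries, and the means were 2.84% ± 0.385 (SD, n = 4) and 3.38% ± 0.203 (SD, n = 4). The share held by mitochondrially encoded transcripts moved with the genotype in the other direction, with means of 3.97% in female controls, 2.41% in female GOF, 4.58% in male controls and 3.27% in male GOF libraries. With mitochondrial counts left out of the total, the members' shares were 2.71, 3.10, 2.97 and 3.49% in the same order.

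With TMM scaling, which sets libraries level on the bulk of genes, the summed level overlapped between genotypes. It was 26986 ± 1799 CPM (SD, n = 4) in female controls and 30132 ± 1815 CPM (SD, n = 4) in female GOF libraries, where the highest control, at 28473 CPM, was above the lowest GOF library, at 28254 CPM. In males it was 29222 ± 4515 CPM (SD, n = 4) in controls, between 24215 and 35191 CPM, and 32028 ± 2239 CPM (SD, n = 4) in GOF libraries. Male controls 1 and 4 stood furthest from their own group. The median member was 0.29 log2 units above its group mean in the first and 0.26 below it in the second.

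**Figure D2:**
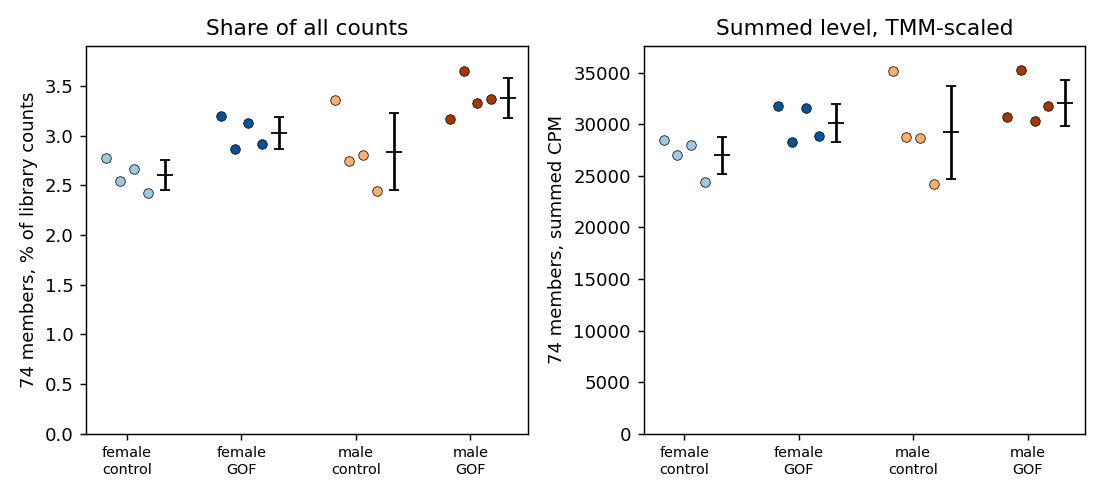
The 74 members per library as a percent of all counts (left) and as summed TMM-scaled CPM (right), points for libraries and bars for mean ± SD (n = 4). The female shares do not overlap between genotypes, whereas 1 male control, at 3.36%, lies among the male GOF libraries.

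The members moved together between libraries of the same group. Each log2 level was taken as a deviation from the mean of its group, which removes differences between groups. The correlation of a member's deviation with the median deviation of the other members had a median of 0.862 over the 16 libraries. It was above 0.5 for 68 of 74 members. The points share library, depth and scaling, so this is a description. The lowest correlations were those of Rpl29 at -0.31, Rpl13a at -0.06 and Rpl26 at -0.06. The SD within groups, pooled over the 4 groups on the log2 scale, had a median of 0.170, and 5 members exceeded 0.4: Rps2, Rpl26, Rps18, Rpsa and Rpl29.

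For 4 of these the copy was high in libraries where the member was low. This holds between sets of libraries, and within a set member and copy could be high together. Rps2, which lines the mRNA entry channel of the 40S subunit, was at 464 to 950 CPM in 13 libraries, but at 76.0 CPM in male control 4, 86.9 CPM in male GOF 3 and 108 CPM in male GOF 4. Its pseudogene Rps2-ps13 was at 385, 398 and 523 CPM in those libraries, at 0.0858 CPM in female GOF 4, where Rps2 was highest, and at 205 to 293 CPM in the other 12. The 3 libraries low in Rps2 are the ones with sample titles in the highest of 4 number ranges, and Rps26-ps1 was at 25.4, 27.9 and 39.3 CPM in them and under 0.35 CPM in all others. With copies added, the SD of Rps2 went from 1.03 to 0.24.

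Rpsa, the laminin receptor protein of the 40S subunit, gave a comparable picture. Rpsa-ps10 was at 165 to 222 CPM in 7 libraries, at 412 CPM in female GOF 4 and at 0.538 CPM or less in the other 8. Rpsa was at 278 CPM in female GOF 4, at 439 to 607 CPM in the 7 libraries, and at 749 to 916 CPM in the 8 without pseudogene counts. The SD of Rpsa went from 0.50 to 0.17 with the pseudogene added.

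Rpl26, near the exit of the nascent chain tunnel, was lowest in female GOF 1 at 42.0 CPM and male GOF 3 at 49.9 CPM, where Gm15772 was highest at 154 and 179 CPM. In the 4 libraries with Gm15772 under 0.2 CPM, Rpl26 was at 235 to 287 CPM. The SD of Rpl26 went from 0.79 to 0.15 with Gm15772 added.

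Rps18 of the 40S head kept most of its spread. Female control 3 held it at 248 CPM, female GOF 1, 2 and 4 at 353, 314 and 318 CPM and male control 1 at 334 CPM, and it was at 70.4 to 132 CPM in the other 11 libraries. Gm11361 was at 21.1 to 37.3 CPM in the 5 high libraries and at 41.2 to 81.8 CPM in the rest. The SD of Rps18 went from 0.78 to 0.55 with Gm11361 added. Rpl29, the other member of large spread, hardly moved with its copies, from 0.455 to 0.432, and the SD of Rps13 went from 0.157 to 0.180. Over all members the median SD was 0.170 without copies and 0.166 with them. What separates these libraries was not tested.

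**Figure D3:**
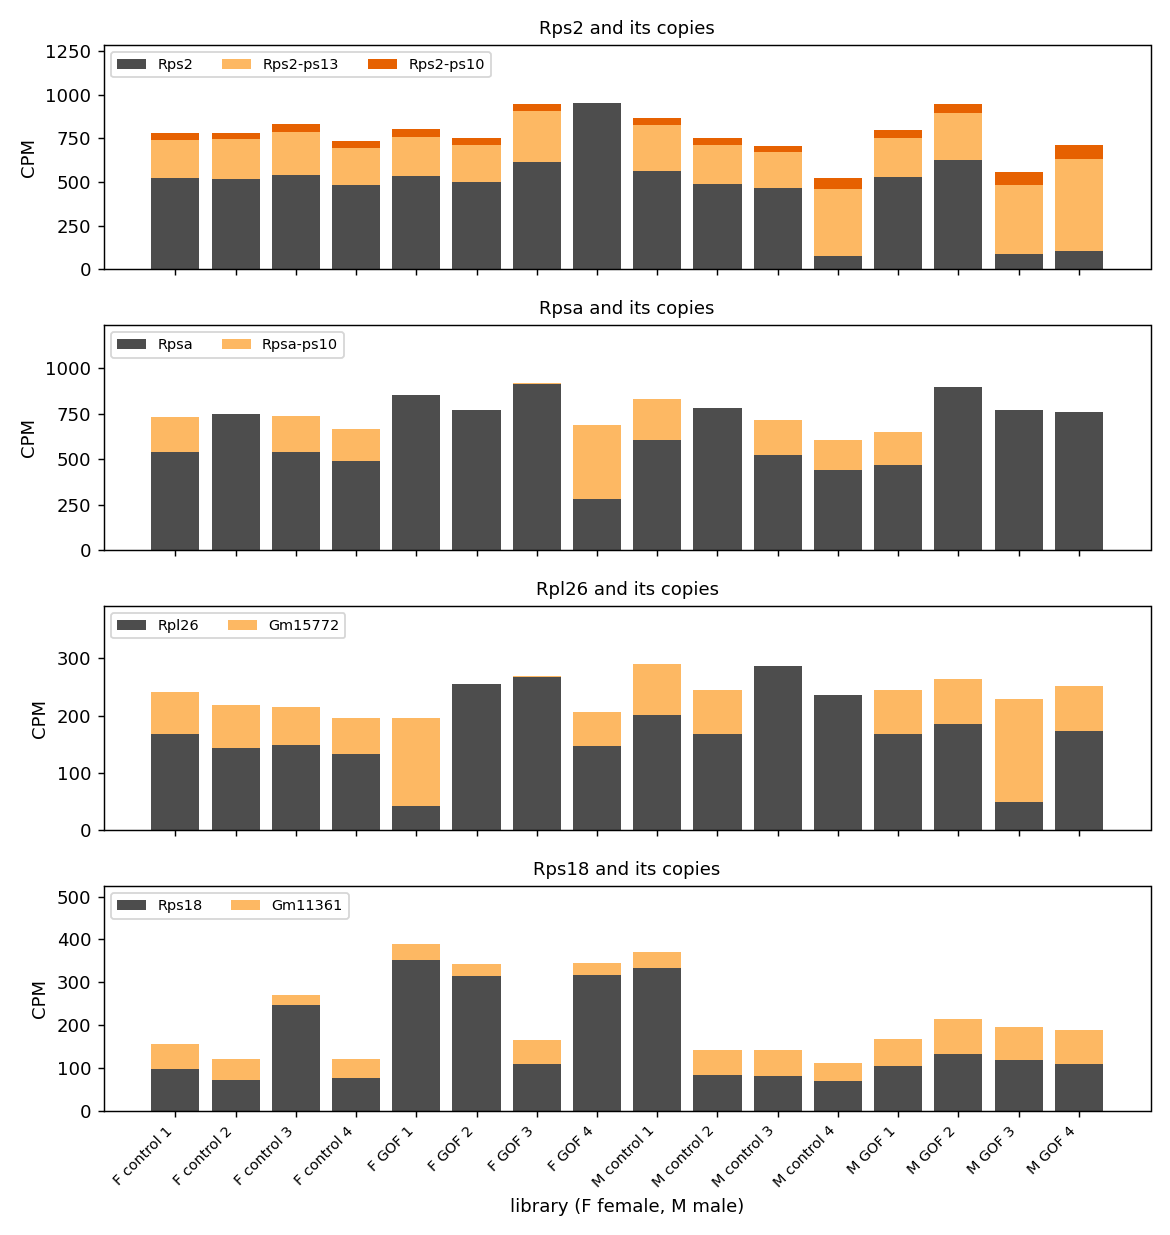
CPM of Rps2, Rpsa, Rpl26 and Rps18 (dark) and of their copies (orange) stacked for each of the 16 libraries. Where a member is low, such as Rps2 at 76.0 CPM in male control 4, the copy is high, and the stacks of the first 3 members vary less than the dark bars.

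In females, 5 members rose with Rspo1 GOF and 0 fell at an adjusted p under 0.05. The 5 were Rpl10a, Rpl3, Rpl12, Rps14 and Rpl7. Over all 18214 genes, 19.0% rose and 20.6% fell (edgeR's quasi-likelihood test, Benjamini-Hochberg adjustment, as in all comparisons below), and 6.76% of members rose. At an unadjusted p under 0.05 the members gave 14 higher and 0 lower, against 24.2% and 23.8% of all genes. At an adjusted p under 0.05, DESeq2 and voom also gave 0 lower. The groups did not overlap for 9 members that were higher and 0 that were lower, against 17.4% and 20.4% of all genes. The median log2 fold change of members was 0.14, against 0.05 for all genes, with 61 of 74 above 0. On the log2 scale 81.1% of members but 37.5% of all genes lay within 0.25 of 0. The median SE also differed, at 0.12 for members, chosen by level, and 0.19 for all genes.

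Rpl10a, a 60S protein of the L1 stalk, was the member with the largest called change in females. It was at 364, 358, 384 and 319 CPM in control females, and 517, 499, 540 and 452 CPM in GOF females. The groups did not overlap, and the log2 fold change was 0.49 ± 0.11 (SE), with an adjusted p of 0.00201. Rpl3, which reaches to the peptidyl transferase centre, was at 499, 476, 582.6 and 517 CPM in controls and 599, 713, 776 and 553.7 CPM in GOF libraries. Its groups overlapped, as the fourth GOF library lay below the third control, and the log2 fold change was 0.35 ± 0.13 (SE, adjusted p 0.0394). Rpl12, at the base of the P stalk, was at 331, 329, 329 and 285 CPM in controls and 411, 365, 420 and 379 CPM in GOF libraries. Rpl12 did not overlap between groups and changed by 0.31 ± 0.11 (SE, adjusted p 0.0394).

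Rps14 of the 40S platform was at 680, 575, 598 and 588 CPM in control females, and 840, 683, 760 and 711 CPM in GOF females, a log2 fold change of 0.29 ± 0.10 (SE, adjusted p 0.0311). The lowest GOF library was just above the highest control. Rpl7, another 60S protein, was at 539, 525, 518 and 457 CPM in controls and 654, 539, 654 and 593 CPM in GOF libraries, a log2 fold change of 0.26 ± 0.10 (SE, adjusted p 0.0481). Rpl35a was at 411 ± 104 CPM in GOF libraries and 295 ± 66.9 CPM in controls (SD, n = 4), with a log2 fold change of 0.48 ± 0.19 (SE) that missed the threshold at an adjusted p of 0.0614. Rps18 had the largest value, 1.15 ± 0.53 (SE, adjusted p 0.102), and was not called.

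The female count depended on single libraries and on scaling. It was 1 without female control 2 or 4, female GOF 2 or 3, or any 1 of the 4 male GOF libraries, 2 without female GOF 1, 3 without female control 1 or 3 or female GOF 4, and 10 without male control 1. It was 18 (24.3% of members, beside 23.7% of all genes that rose) with library totals in place of TMM factors, and 2 (2.70%, beside 15.9%) with the copies added. The members' share was above that of all genes in 1 of 34 alternatives, library totals. Rpl10a passed the threshold in all 34 alternatives, with adjusted p between 0.000173 and 0.0130. The other 4 lost their calls in many of the 34, Rpl7 in 23, Rpl12 in 20, and Rpl3 and Rps14 in 17 each. Rps18 was called in 3, without female control 3, without male control 1, and without male controls 1 and 4.

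In males, 5 members rose with GOF and 0 fell, where 15.2% of all genes rose and 21.8% fell. The 5 were Rpl35a, Rpl10a, Rps14, Rpl13a and Rpl12. At an unadjusted p under 0.05 there were 12 higher and 1 lower, Rplp2, against 20.9% and 25.5% of all genes. At an adjusted p under 0.05, DESeq2 gave 0 lower and voom 1, again Rplp2. The groups did not overlap for 4 members that were higher and 0 that were lower, against 14.0% and 19.1% of all genes. The members' median was 0.09, against 0.01 for all genes, and 60 of 74 were above 0. Within 0.25 of 0 lay 78.4% of members and 40.8% of all genes, with median SEs of 0.12 and 0.19.

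Rpl35a, a 60S protein whose loss in people causes Diamond-Blackfan anaemia, had the largest called change. It was at 378, 323, 327 and 313 CPM in male controls and 536, 513, 708 and 823 CPM in male GOF libraries. The groups did not overlap, and the log2 fold change was 0.94 ± 0.19 (SE), with an adjusted p of 0.00154. Within title ranges it was 0.62 in the range with 2 GOF and 3 control libraries, and 1.29 in the range with 2 and 1.

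Rpl10a was at 469, 345, 339 and 347 CPM in male controls and 521, 628, 578 and 581.9 CPM in male GOF libraries, a log2 fold change of 0.62 ± 0.11 (SE, adjusted p 0.000358). Rps14 was at 984, 795, 768 and 748 CPM in controls and 1090, 1176, 1306 and 1203 CPM in GOF libraries, a log2 fold change of 0.54 ± 0.10 (SE, adjusted p 0.000808). For both genes male control 1 was the highest control, and still below every GOF library. Rpl13a, which silences inflammatory messages when released from the 60S subunit, was at 11.8, 11.1, 11.8 and 11.04 CPM in controls and 14.9, 13.9, 18.4 and 18.9 CPM in GOF libraries, a log2 fold change of 0.53 ± 0.12 (SE, adjusted p 0.00231). Its groups did not overlap, at a level far below the other called members. Rpl12 was at 425, 359, 334 and 285 CPM in controls and 383, 493, 433 and 412 CPM in GOF libraries, which overlapped, with a log2 fold change of 0.29 ± 0.11 (SE, adjusted p 0.0487).

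Rpl35a, Rpl10a, Rps14 and Rpl13a passed the threshold in all 34 alternatives in males, and Rpl12 lost it in 19. The male count was 19 (25.7% of members, beside 13.1% of all genes that rose) without male control 1, 8 (10.8%, beside 13.0%) without male GOF 1, and 26 (35.1%, beside 24.98%) with library totals. The members' share, below that of all genes in the fit reported here, was above it in 6 of 34 alternatives. Besides the first and last of these, they were voom, both FPKM scales and the fit without male controls 1 and 4. Within title ranges the median member was 0.07 higher in GOF with 2 against 3 libraries and 0.32 higher with 2 against 1, the 1 being male control 4. In females it was 0.13 with 1 against 1 and 0.15 with 2 against 3.

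**Figure D4:**
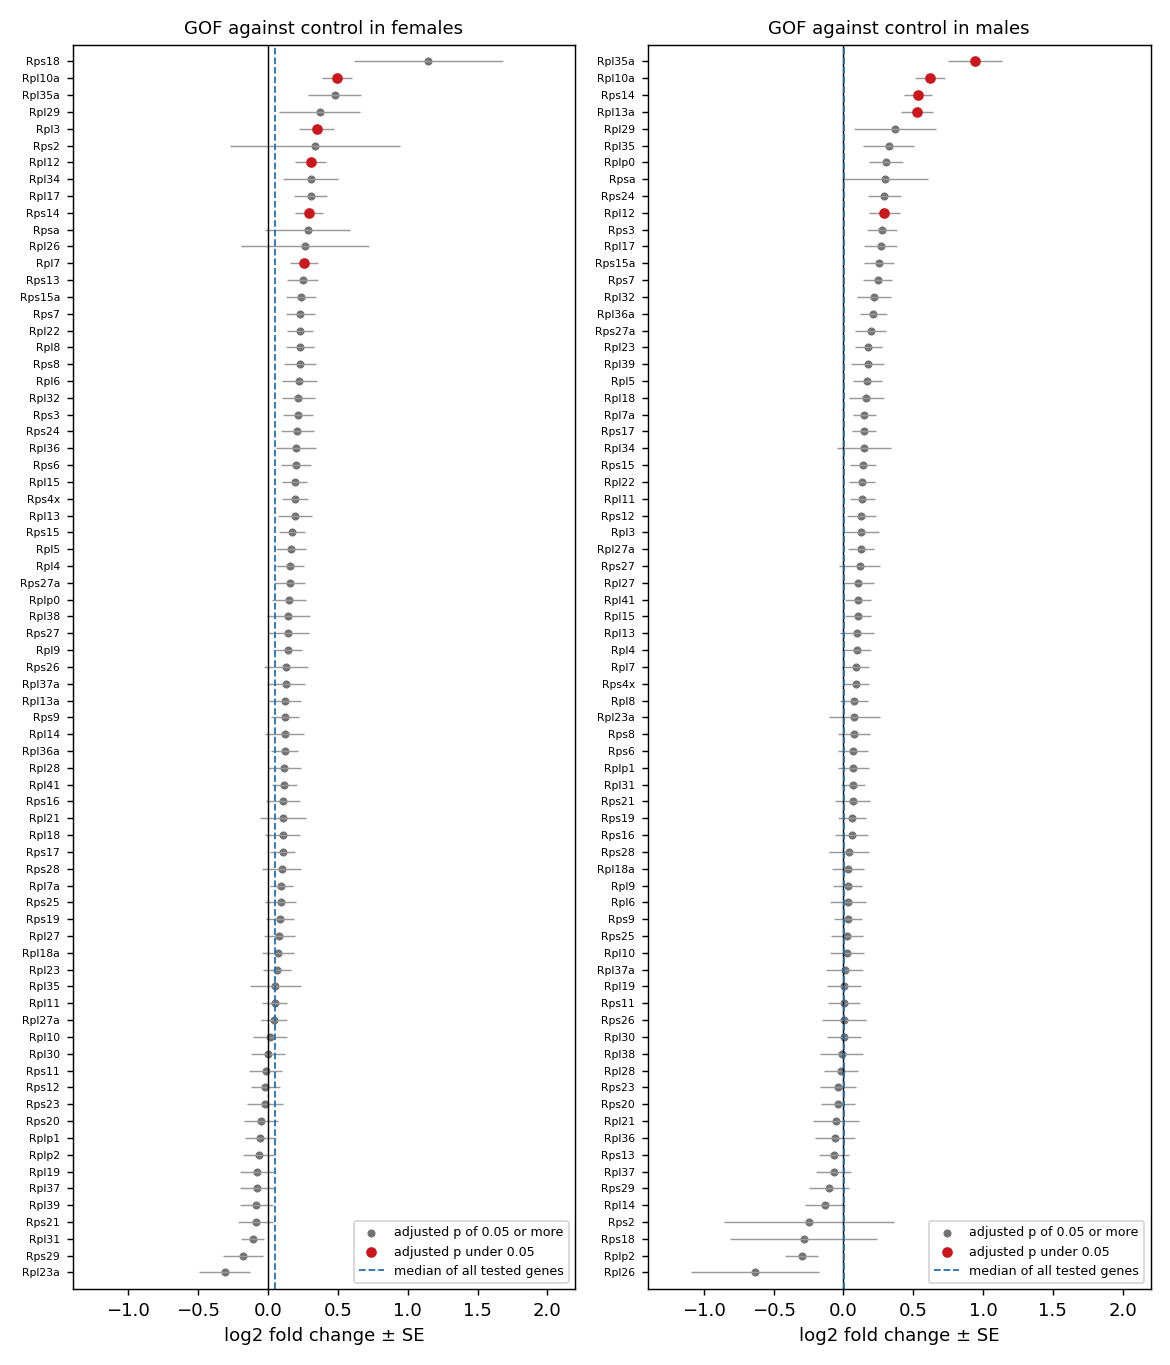
Log2 fold change ± SE of single members for GOF against control in females (left) and males (right), red where the adjusted p is under 0.05, with the median of all tested genes dashed. Most members lie between 0 and 0.25, and the widest error bars belong to Rps18, Rps2 and Rpl26.

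Whether the response to GOF differed between the sexes was tested by edgeR's interaction term, which called 0 members higher and 0 lower in males, against 1.59% and 2.61% of all genes. At an unadjusted p under 0.05 the members gave 1 higher, Rpl13a, and 0 lower, against 6.98% and 13.2% of all genes. At an adjusted p under 0.05, DESeq2, voom and limma on FPKM also called 0. The median interaction was -0.01 with a median SE of 0.17. For Rpl35a it was 0.47 ± 0.27 (SE, adjusted p 0.347), for Rpl13a 0.41 ± 0.16 (SE, adjusted p 0.176) and for Rps14 0.24 ± 0.14 (SE, adjusted p 0.357), none of them past the threshold.

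Between control males and females, 2 members were higher in males and 0 were lower, against 13.5% and 9.89% of all genes. At an unadjusted p under 0.05 there were 5 higher and 0 lower, against 22.7% and 14.8% of all genes. At an adjusted p under 0.05, DESeq2 and voom also gave 0 lower. The groups did not overlap for 3 members higher in males and 0 lower, against 14.4% and 10.9% of all genes. Rps14 was 0.43 ± 0.10 log2 units higher in males (SE, adjusted p 0.00696), its 4 male values of 748 to 984 CPM all above the female values of 575 to 680 CPM. With the title range as a covariate its difference was 0.27 and no longer called (adjusted p 0.230), and with only the compared groups in the fit it was 0.38 (adjusted p 0.0541). Rpl22, a 60S protein with a role in lymphocyte development, was at 227, 215, 220 and 199 CPM in females and 308, 254, 251 and 228 CPM in males, a log2 difference of 0.27 ± 0.09 (SE, adjusted p 0.0461) that lost its call in 24 of 34 alternatives. The count was 2 without female GOF 2 or female control 1, 6 without male control 4, and 1 without any 1 of the other 13 libraries, and 0 with the title range as a covariate. The median member was 0.12 higher in males and all genes 0.08, and 68 of 74 members were above 0. Marker sums also moved with sex in controls. Without overlap, male controls were above female controls for erythroid markers, at 1093 to 2131 against 338 to 1007 CPM, macrophage markers, at 404 to 555.9 against 226 to 366 CPM, and liver markers, at 185 or more against 176 CPM or less, and their part in the sex difference was not tested.

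Between GOF males and females, 7 members were higher in males and 0 were lower, against 13.3% and 16.3% of all genes. At an unadjusted p under 0.05 there were 13 higher and 1 lower, Rps18, against 19.1% and 21.3% of all genes. At an adjusted p under 0.05, DESeq2 gave 0 lower and voom 2, Rps2 and Rps26. The groups did not overlap for 8 members higher in males and 0 lower, against 13.4% and 15.7% of all genes. Rps14 again had the largest called difference, 0.67 ± 0.10 (SE, adjusted p 0.000214), with all male values of 1090 to 1306 CPM above the female values of 683 to 840 CPM. Rpl35a differed by 0.65 ± 0.19 (SE, adjusted p 0.0189) although its groups overlapped, and lost the call without female GOF 4, male GOF 3 or male GOF 4. Within the 1 title range that holds both sexes, Rpl35a was 0.09 log2 units lower in the 2 males than in the 1 female.

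The other members higher in GOF males were Rpl13a at 0.48 ± 0.12, Rps24 at 0.34 ± 0.12, Rps12 at 0.32 ± 0.10, Rpl31 at 0.32 ± 0.08 and Rpl23 at 0.31 ± 0.10 (log2 difference ± SE, adjusted p 0.00585 to 0.0387). Rps24 and Rpl31 are among the anaemia genes, and Rps12 sits in the 40S head. Of 34 alternatives, the call was lost in 12 for Rps24, 9 for Rps12, 6 for Rpl23 and 5 for Rpl35a, and in 1, the title range, for Rps14, Rpl13a and Rpl31. The count was 4 without female GOF 2, male GOF 2 or male GOF 4, 3 without female GOF 4, and 11 without male control 1. With the title range as a covariate it was 0. In that fit Rps14 kept a difference of 0.51 (adjusted p 0.0520), Rpl35a had 0.04 (adjusted p 0.931), and the other 5 had 0.22 to 0.33 (adjusted p 0.215 to 0.508). Range and sex are partly confounded, since GOF males and females share 1 range, with 2 males and 1 female. In it Rps14 was at 1090 and 1176 CPM in the males and 840 CPM in the female. The members' share was above that of all genes in 9 of 34 alternatives. Sums of other lists also differed between GOF males and females without overlap. Given with males first, the stress and RNA quality genes were at 2156 to 4089 against 884 to 2015 CPM. The 7 endothelium markers were at 851 to 1088 against 617 to 698 CPM, and the 16 cell cycle genes at 203 to 306 against 469.8 to 1240 CPM. Also lower in males were ribosome biogenesis genes, at 2469 to 2848 against 3060 to 3609 CPM. So were mTORC1 and pyrimidine-tract regulators, at 1421 to 1541 against 1644 to 1816 CPM. Mitochondrial ribosomal proteins were lower too, at 3329 to 3506 against 3616 to 4284 CPM. The part of these sums in the sex difference was not tested. The 2 sex comparisons share their groups with the GOF comparisons, so the values are given side by side and not counted as agreement.

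**Figure D5:**
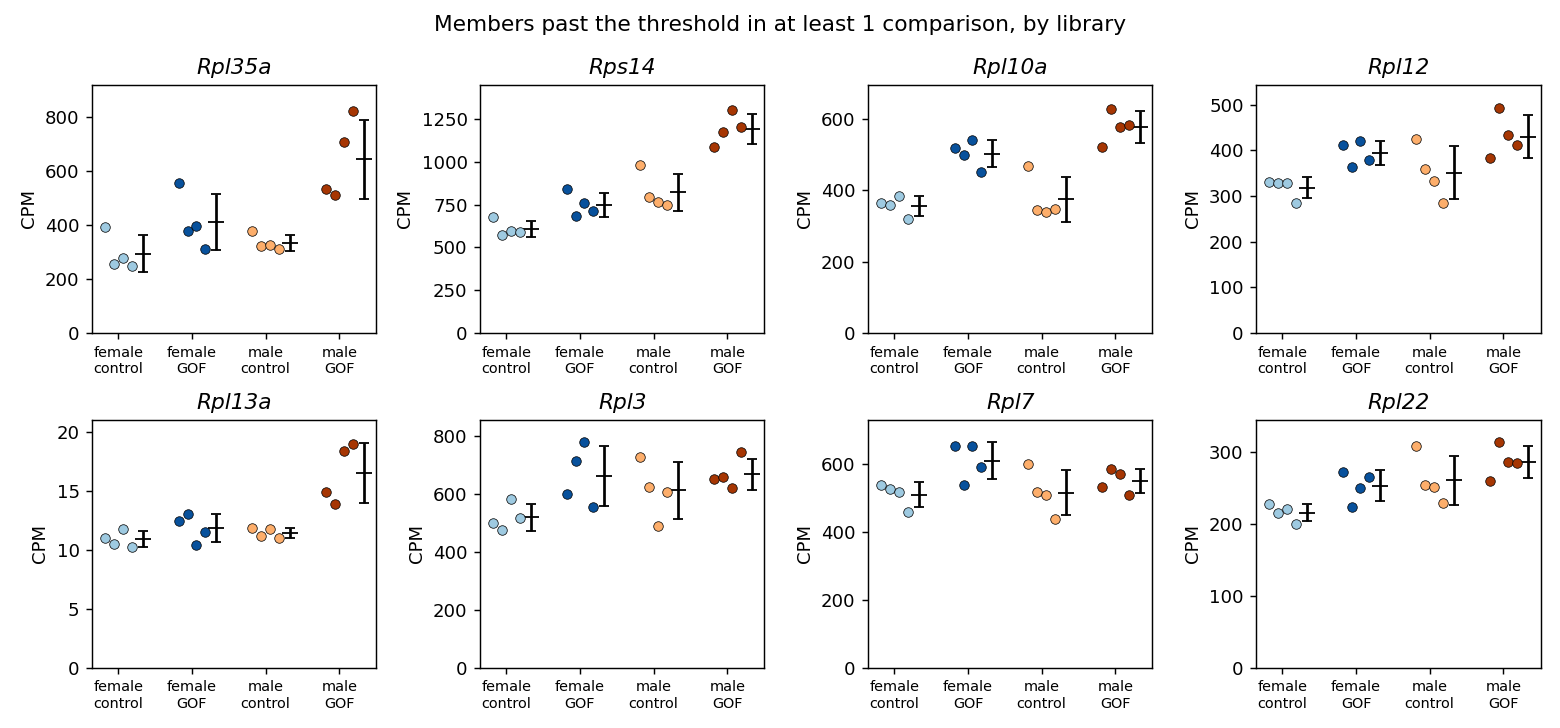
CPM by library of 8 members past the threshold in at least 1 comparison, points for libraries and bars for mean ± SD (n = 4), axes from 0. Rpl10a separates GOF from control in both sexes, and the male GOF values of Rps14, 1090 to 1306 CPM, are above all other libraries.

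The called members belonged to several places in the ribosome. The counts of risers in this paragraph stand beside 19.0% of all genes that rose in females and 15.2% in males, and the counts of both subunits lie below those shares. Of the 45 large subunit members 4 rose in females and 4 in males, with median log2 fold changes of 0.12 and 0.11, and of the 29 small subunit members 1 rose in each sex, with medians of 0.15 and 0.07. Of the 4 P stalk members Rpl12 rose in each sex, while Rplp2 was at -0.06 in females and -0.30 in males without passing the threshold. Of the 5S RNP pair, Rpl5 and Rpl11, which bind the p53 regulator Mdm2 when ribosome assembly is disturbed, 0 were called, with log2 fold changes of 0.16 and 0.05 in females and 0.17 and 0.14 in males. Of 7 members grouped as central 60S, among which the L1 stalk protein Rpl10a was counted, Rpl3 and Rpl10a rose in females and Rpl10a alone in males, and of the 7 at the exit tunnel 0 were called in either GOF comparison. In the 40S head 0 of 12 members were called in either sex, and of 6 in the channel and platform Rps14 rose in both. Of 18 members mutated in Diamond-Blackfan anaemia, 0 rose in females and Rpl35a rose in males. Members that host snoRNA genes, 29 with 56 such genes, had medians of 0.11 and 0.09, and the 45 without had 0.14 and 0.09.

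The 4 X-linked members were not called in any comparison. Rps4x was at 412 ± 23.4 CPM in female controls, 471 ± 32.3 in female GOF, 483 ± 54.3 in male controls and 514 ± 49.8 CPM in male GOF libraries (SD, n = 4). In controls the log2 difference of males against females was 0.23 ± 0.09 for Rps4x, 0.15 ± 0.12 for Rpl10, 0.12 ± 0.10 for Rpl36a and 0.04 ± 0.12 for Rpl39 (SE). The adjusted p was 0.0844 for Rps4x, the smallest of the 4. All 4 were on the male side of 0, as were 68 of all 74 members.

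Genes that assemble ribosomes are given for comparison. Of 40 ribosome biogenesis genes, 29 rose in females and 16 in males, and 0 fell, beside 19.0% and 15.2% of all genes that rose. The 2 largest called changes were Mdn1, a remodelling ATPase of the pre-60S particle, at 1.14 ± 0.21 and Gar1, a snoRNP protein, at 0.75 ± 0.09 in females, and Nop56, another snoRNP protein, at 0.66 ± 0.13 and Mdn1 at 0.65 ± 0.20 in males (log2 fold change ± SE). Of 14 RNA polymerase I genes 8 rose in females and 6 in males, led by Polr1b at 0.83 ± 0.16 in females and Taf1d at 0.99 ± 0.19 in males. The median log2 fold change was 0.38 and 0.22 for biogenesis and 0.33 and 0.25 for polymerase I, beside 0.14 and 0.09 for the members. Of 16 cell cycle genes 14 rose in females and 0 in males, and their part in the biogenesis counts was not tested.

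The lists that follow stand beside 19.0% of all genes that rose and 20.6% that fell in females, and 15.2% and 21.8% in males. Among 28 translation factors 3 rose and 2 fell in females, and 2 rose in males, led by Eif6, which keeps 60S subunits apart from 40S, at 0.51 ± 0.08 in females and Eif2s1 at 0.26 ± 0.09 in males. Among 4 further proteins of the ribosome Rack1, a scaffold on the 40S head, rose by 0.32 ± 0.10 in females and 0.33 ± 0.10 in males. Among 6 tested near-copies of ribosomal proteins, Rpl7l1 rose by 0.46 ± 0.06 in females and 0.36 ± 0.06 in males, and Rpl36al, with a group mean of at most 1.01 CPM, also rose in males. Of 19 mTORC1 and pyrimidine-tract regulators 1 rose and 2 fell in females and 2 rose and 5 fell in males. Myc, a driver of ribosome genes, rose by 0.98 ± 0.18 in females and 0.75 ± 0.18 in males, Sesn2 fell by 0.94 on the log2 scale in females, and Eif4ebp1, the translation repressor, fell by 0.92 in males. Of 10 p53 response genes 2 rose and 2 fell in females and 3 rose and 2 fell in males, led by Trp53 at 0.66 ± 0.07 and Bax at 0.63 ± 0.08 in females and Phlda3 at -1.90 ± 0.34 and Cdkn1a at -0.80 ± 0.25 in males. Trp53 at 0.45 ± 0.07 and Bax at 0.49 ± 0.08 also rose in males, and Trp53inp1 at -0.55 ± 0.12 and Ccng1 at -0.37 ± 0.10 fell in females. Of 77 mitochondrial ribosomal proteins 12 rose and 9 fell in females, and 2 rose and 15 fell in males. The largest called change was Mrps11 at 0.69 ± 0.12 in females. In males it was Mrpl33 at 0.95 ± 0.19, 1 of the 2 risers there. The list summed to 3420 to 3943 CPM in male controls and 3329 to 3506 CPM in male GOF libraries, which overlap.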

How the data were processed

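Per the labels' protocols, column-purified total RNA was used where its RIN was 7.0 or higher, and NEBNext Ultra libraries were read as 150 bp pairs. The submitters' processing notes name Bowtie2 2.2.3, TopHat2 2.0.12, HTSeq 0.6.1 and DESeq 1.18.0. The genome build, annotation and strand setting are not given in the sources used here. The deposited counts are whole, unnormalized reads per Ensembl gene for 54838 genes. The second deposited table, in FPKM, equals counts divided by the library total and by 1 fixed length per gene. Symbols and coordinates came from GENCODE M21 (GRCm38), and start regions from RefSeq on GRCm38.p6.

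Counts were tested in edgeR 4.0.16 (R 4.3.3) by robust quasi-likelihood, with 1 mean per group over all 16 libraries, TMM factors and filterByExpr, which kept 18214 genes. Benjamini-Hochberg adjustment ran over all of them, with a threshold of 0.05. CPM is per 1000000 TMM-scaled counts, except the mean CPM of the membership rule, which used library totals. Depth was 31275146 to 43003968 counts per library. Groups came from the labels, and replicate numbers follow accession order and pair nothing. Alternatives used DESeq2 1.42.0, limma 3.58.1 and other scalings, filters, libraries and ways of counting copies. The script was tested on simulated data for GOF against control in females, over 18214 genes. Of the genes above 1 CPM, 100 were changed by 0.5 log2 units and 100 by 1. The script recovered 15% of the first and 67% of the second, and 1.20% of its calls were false. In the data 39.6% of genes were called in this comparison. The median SE there was 0.12 for members and 0.19 for all genes, so these percents do not give the recovery for members. Title ranges are runs of sample title numbers separated by gaps over 15, and their meaning is not given in the sources used here. Tables and plots used Python 3.11.15, pandas 2.3.3, numpy 2.4.6 and matplotlib 3.10.9.

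The members, role groups and gene lists were chosen with earlier results of these data known. Named were the 6 highest and 6 lowest called changes per comparison, the X-linked members, and the 5 highest and 5 lowest members by FPKM. Genes around the floor were also named, and the 1 or 2 largest called changes of other lists. Other genes named with values were chosen after these were seen, among them the 5 members of largest spread and their copies, Rps26-ps1 and Rplp2. The values of 1 member are not reported here, and counts and medians over the members include it.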

Additional observations from a re-analysis of the deposited data

Results flagged for a closer look

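In 116 groups of 4 values, covering 28 named members and the members' share of all counts in each of the 4 groups of mice, 8 values stood apart from the other 3 of their group by more than 0.829 of the group's range (Dixon's test), where chance gives about 1 in 20. In female controls these were Rpl12 in library 4, low at 285 CPM, and Rps18 in library 3, high at 248 CPM. In female GOF libraries they were Rps12 at 346 CPM and Rps24 at 542 CPM, both high in library 1, and Rps18, low at 110 CPM in library 3. In male controls Rpl10a at 469 CPM and Rps18 at 334 CPM were high in library 1, where the median member was 0.29 log2 units above its group mean. In male GOF libraries Rpl26 was low at 49.9 CPM in library 3, where its copy Gm15772 was at 179 CPM. Rps18 accounted for 3 of the 8.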

How the results depend on the processing

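The median log2 fold change of members kept its sign in 34 alternatives for each GOF and sex comparison, from 0.06 to 0.20 for GOF in females, 0.02 to 0.22 for GOF in males, 0.01 to 0.20 for sex in controls and 0.05 to 0.17 for sex in GOF mice, and changed sign for the interaction, from -0.10 to 0.09. Counts of members called depended more on the setting. GOF in females, 5 higher, became 2 with RLE factors, 1 with upper-quartile factors, 18 with library totals, 10 with voom, 1 without a filter, 1 with at least 10 counts in every library, 3 with only the groups compared, 18 and 17 on log2(FPKM + 1) and log2(FPKM + 0.1), 2 without the kidney and liver libraries and 1 at an adjusted p of 0.01. GOF in males, 5 higher, became 13 with upper-quartile factors, 26 with library totals, 10 with DESeq2, 14 with voom (and 1 lower), and 25 and 23 on the FPKM scales. Sex in controls, 2 higher, became 1 with RLE or upper-quartile factors, either filter, only the groups compared, those libraries left out, or an adjusted p of 0.01, 0 with the title range as a covariate, and 3 with library totals or on either FPKM scale. Sex in GOF mice, 7 higher, became 11 with upper-quartile factors, 16 with library totals, 11 with DESeq2, 13 with voom (and 2 lower), 11 with at least 10 counts in every library, 15 and 14 on the FPKM scales, 0 with the title range and 3 at an adjusted p of 0.01, and only the groups compared gave 1 lower. Chosen after seeing the data, adding copies gave 2, 4, 1 and 7 higher in the same order, and leaving out male controls 1 and 4 gave 10, 9, 1 and 12 higher with 1 lower in the last. The interaction gave 0 throughout. The cause was not tested.

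Library totals moved the median of all genes in males from 0.01 to 0.12, and the share of all calls that were higher from 41.1% to 57.6%. In females that share went from 48.0% to 55.7%. On log2(FPKM + 1) it was 61.3% in males and 60.7% in females, and with upper-quartile factors 51.2% in males. Leaving out each library gave 1 to 10 higher for GOF in females, 4 to 19 higher and 0 to 1 lower in males, 1 to 6 higher and 0 to 1 lower for sex in controls, and 3 to 11 higher and 0 to 1 lower for sex in GOF mice. The members' share of the summed FPKM was 5.25, 6.13, 5.78 and 6.90% in female control, female GOF, male control and male GOF libraries. Single values were followed for the called members, and in the GOF comparisons also for Rps2, Rps18, Rpl26 and Rpsa. Other members were not followed. The followed values that changed sign, none of them called, are given next. In females Rpsa was at -0.067 with voom. Rpl26 in females was at -0.0073 without GOF library 2 and -0.044 without 3, and up to 0.59 without library 1. In males Rps18 was at 0.29 with voom and 0.17 on FPKM with either pseudocount. It was at 0.58 without male control 1, 0.51 without male controls 1 and 4, and down to -0.51 without control 4. Rps2 in males was at 0.24 with the title range, 0.079 with named pseudogenes added and 0.063 with copies added. It was at 0.061 without GOF library 3, 0.036 without 4, and down to -0.74 without 2. The members called lower in any alternative were Rplp2 for GOF in males, Rpl23a for sex in controls, and Rps18, Rps2 and Rps26 for sex in GOF mice. No paired analysis was possible because the replicate numbers follow accession order and the labels pair no mice.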
